A study of Mus musculus with 2 samples.

Results

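The sarcoplasmic reticulum genes of calcium release and uptake were compared between the esophagus of embryos labelled Myf5-/-:MyoD-/- and that of wild-type embryos, both at E18.5 and both labelled BALB/c. The set holds 10 genes of the 18193 that had a probe set with a single gene symbol in the platform annotation, and all 22 probe sets with one of these symbols were used. The genes were grouped as skeletal muscle isoforms (Ryr1, Atp2a1, Casq1), genes of both skeletal muscle and heart (Sln, Srl), and genes shared with cardiac or smooth muscle (Ryr2, Ryr3, Atp2a2, Casq2, Pln). Each genotype had 1 Affymetrix array, hybridized with biotin-labelled cRNA from 6 µg of total RNA, so no test between genotypes was possible and each difference compares 2 RNA samples. The labels give no promoter or cell type for either null allele, and the number of embryos per sample is not given in these sources. The series title sets the arrays in the exchange of smooth for striated muscle in the developing esophagus.

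In striated muscle, the sarcoplasmic reticulum stores calcium, releases it through ryanodine receptors to start contraction and takes it back with SERCA pumps to end it. Calsequestrins hold calcium inside the store, and the small membrane proteins sarcolipin and phospholamban restrain the pumps. Skeletal fibers, the heart and smooth muscle use overlapping sets of these paralogs, and smooth muscle also releases calcium through IP3 receptors.

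Values are MAS5 signals, a linear brightness per probe set in arbitrary units scaled by the authors. A signal under 489, the median of all probe sets of both arrays together, was raised to that limit before a ratio was taken. A gene under the limit on 1 array therefore has only a bound, written "at least". A gene was represented by its brightest probe set. The only error to be had is the SD of the log2 ratio among the probe sets of a gene, 0.56 over 5455 genes with several, which leaves out all variation between embryos. Levels of different genes were not compared, since probe sets differ in brightness.

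The targeted genes and the tissue markers were examined first. Myf5 read 496 on the null-labelled array and 4072 on the wild-type array, 8.22-fold lower. Myod1 read 1698 on the null-labelled array and 2001 on the wild-type array at its brighter probe set, 1.18-fold lower. Its other probe set was below the limit on both. Whether these probe sets fall inside the deleted parts was not analysed here, so the Myod1 signal does not check the label. Of 10 striated muscle markers, 9 were measured and all 9 were at least 2-fold lower at their brightest probe sets. A second Ckm probe set did not repeat this, with a log2 ratio of 0.25. Mb was below the limit on both arrays. The signal summed over all 10 was 8554 on the null-labelled array and 366773 on the wild-type array. Of 8 smooth muscle markers, 2 were at least 2-fold higher and 0 at least 2-fold lower. Ratios were above 0 for 6 and below 0 for 2, Cnn1 (1.69-fold lower) and Tagln (1.38-fold lower). The sums were 650187 on the null-labelled and 321319 on the wild-type array, so both arrays carried smooth muscle signal. Most of each sum came from Mylk (326483 and 115515 on the same arrays) and Acta2 (242976 and 131127). The other measured Mylk probe sets had log2 ratios of 0.084 and 1.86. In bulk tissue, fewer muscle cells and less RNA per muscle cell cannot be told apart. The array's 3' control probe sets were brighter than the 5' ones, a reading used to judge RNA integrity, by a ratio of 14.2 on the null-labelled and 12.6 on the wild-type array for Actb, and 6.96 and 10.5 on the same arrays for Gapdh; its part in the results was not tested.

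Of the 10 genes, 5 were at least 2-fold lower on the null-labelled array and 1 was at least 2-fold higher. Among all 13315 measured genes, 5.36% passed 2-fold in the lower direction and 6.01% in the higher one. The 5 lower genes were Srl, Atp2a1, Casq2, Sln and Ryr1, and each was at least 4-fold lower, against 1.07% of all measured genes. None was at least 4-fold higher, against 0.158% of all. The higher gene was Ryr2. Casq1, Atp2a2, Ryr3 and Pln lay within 2-fold at their brightest probe sets. By probe set, 16 of the 22 were above the limit on at least 1 array, of which 5 were 2-fold lower and 2 were 2-fold higher, against 4.94% and 5.94% of all measured probe sets. The median log2 ratio of the 10 genes was -1.80, with a range of -4.26 to 1.31, against a median of 0.086 for all measured genes. With an even split of low and other ratios this median is unsteady: it was -0.69 without any one of the 5 lower genes and -2.91 without any one of the other 5. Of the 10 ratios, 4 are bounds (Ryr1, Atp2a1, Sln and Ryr2).

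**Figure D1:**
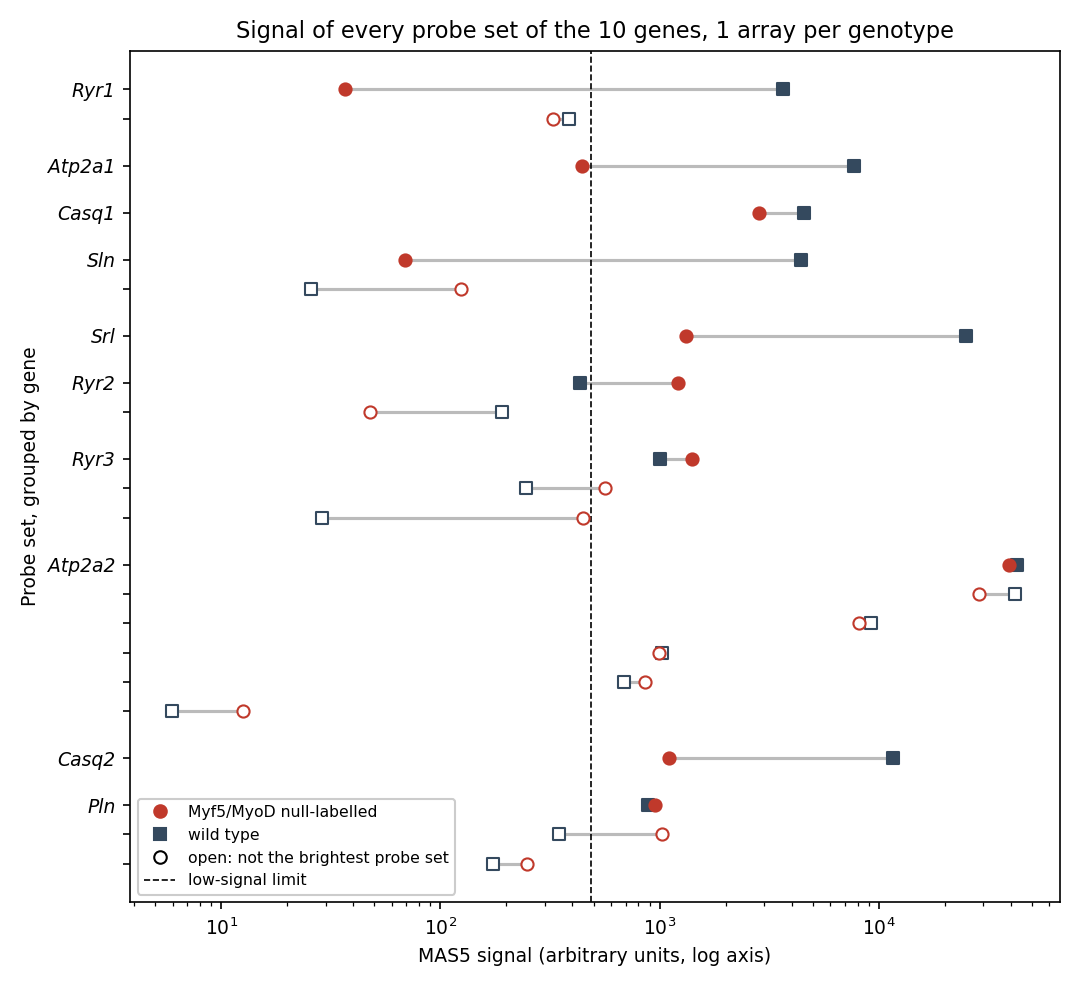
MAS5 signal (log axis) of all 22 probe sets of the 10 genes on the null-labelled array (circles) and the wild-type array (squares), 1 array each; filled symbols are the brightest probe set of a gene and the dashed line is the limit of 489. Ryr1, Atp2a1, Sln, Srl and Casq2 have long gaps with the null-labelled array on the left, while both arrays nearly coincide for Atp2a2.

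Among the release channels, Ryr1 was at least 2-fold lower, Ryr2 was at least 2-fold higher and Ryr3 lay within 2-fold. Ryr1, the release channel of skeletal muscle, which the voltage sensor of the transverse tubule opens directly, read 36.6 on the null-labelled array and 3665 on the wild-type array at its brighter probe set, at least 7.49-fold lower. The null-labelled signal was far under the limit, so the size of the difference is not fixed by these arrays. The other Ryr1 probe set read 327 on the null-labelled and 388 on the wild-type array, below the limit on both, and gives no ratio.

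Ryr2, the release channel of the heart, which calcium entry opens and which smooth muscle and neurons also express, read 1210 on the null-labelled array and 435 on the wild-type array, at least 2.47-fold higher. Its other probe set went the other way, with 47.7 on the null-labelled and 192 on the wild-type array, but both signals were below the limit. Ryr2 was thus higher at the only probe set that measured it, and dim on both arrays. Its log2 ratio of 1.31 became 1.11 with quantile normalization and 1.06 with loess, close to the 2-fold threshold. Under a limit set to the 75th percentile of signals it was not measured at all, and the count of higher genes was 0. At the main limit, 266 of all measured genes had a ratio as high as that of Ryr2 or higher, Ryr2 included. A count of 1 higher gene in 10 is too few to set apart from the 6.01% of all measured genes.

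Ryr3, a broadly expressed channel that skeletal muscle makes around birth, read 1406 on the null-labelled and 1009 on the wild-type array, 1.39-fold higher, which is within the SD between probe sets. A second Ryr3 probe set read 563 on the null-labelled and 245 on the wild-type array, a bound of 0.20 on the log2 scale. The third was below the limit on both arrays, at 446 on the null-labelled and 28.7 on the wild-type array. All 3 Ryr3 probe sets read higher on the null-labelled array, none of them by 2-fold once low signals were raised to the limit.

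The pumps split between paralogs, with Atp2a1 at least 2-fold lower and Atp2a2 within 2-fold. Atp2a1 encodes SERCA1, the pump of fast skeletal fibers, and read 442 on the null-labelled array and 7682 on the wild-type array, at least 15.7-fold lower. Its null-labelled signal lay just under the limit, so this bound is near the ratio of the signals themselves. Atp2a1 had 1 probe set.

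Atp2a2 encodes SERCA2, the pump of slow skeletal fibers and the heart and, in another splice form, of smooth muscle and most other cells. It read 39082 on the null-labelled and 42940 on the wild-type array, 1.10-fold lower. Atp2a2 had 6 probe sets, the most of the 10 genes, and 5 of them were above the limit on both arrays. A second bright probe set read 28575 on the null-labelled and 41820 on the wild-type array, 1.46-fold lower. The log2 ratios of the 5 ran between -0.55 and 0.31 with an SD of 0.31, so none was 2-fold apart and they took both signs. Which splice form each probe set detects was not analysed here.

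The calsequestrins did not follow this split. Casq1, the calsequestrin of fast skeletal fibers, read 2837 on the null-labelled array and 4563 on the wild-type array, 1.61-fold lower, or 1.23 times the SD between probe sets. Casq2, the calsequestrin of the heart that slow and developing skeletal fibers and smooth muscle also make, read 1105 on the null-labelled array and 11590 on the wild-type array, 10.5-fold lower. Both genes were above the limit on both arrays, so neither ratio is a bound. Here the skeletal isoform lay within 2-fold, and the paralog shared with the heart was among the lowest ratios, with 40 of all measured genes at or below it, itself included. Each calsequestrin had 1 probe set. That of Casq2 has an ID ending in _s_at, Affymetrix's mark for a probe set that can match more than one transcript.

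The pump regulators differed as the pumps did. Sln encodes sarcolipin, which binds and restrains SERCA in skeletal muscle and the atria, and read 68.8 on the null-labelled array and 4434 on the wild-type array, at least 9.06-fold lower. Its other probe set was below the limit on both, at 124 on the null-labelled and 25.8 on the wild-type array. Pln encodes phospholamban, which restrains SERCA2 in the heart, slow fibers and smooth muscle until it is phosphorylated. Its brightest probe set read 957 on the null-labelled and 890 on the wild-type array, 1.08-fold higher.

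A second Pln probe set read 1028 on the null-labelled and 346 on the wild-type array, a bound of 1.07 on the log2 scale, and the third was below the limit on both (249 on the null-labelled and 173 on the wild-type array). The 3 Pln probe sets thus read higher on the null-labelled array by unequal amounts, with an SD of 0.68 between the measured ones. With quantile normalization or loess the brightest one was slightly lower instead, with log2 ratios of -0.17 and -0.18.

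Srl encodes sarcalumenin, a luminal glycoprotein that binds calcium and supports SERCA in skeletal and heart muscle. It read 1314 on the null-labelled array and 25113 on the wild-type array, 19.1-fold lower, the lowest ratio of the 10 genes. Both signals were above the limit. Of all measured genes, 21 had a ratio as low or lower, Srl included.

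**Figure D2:**
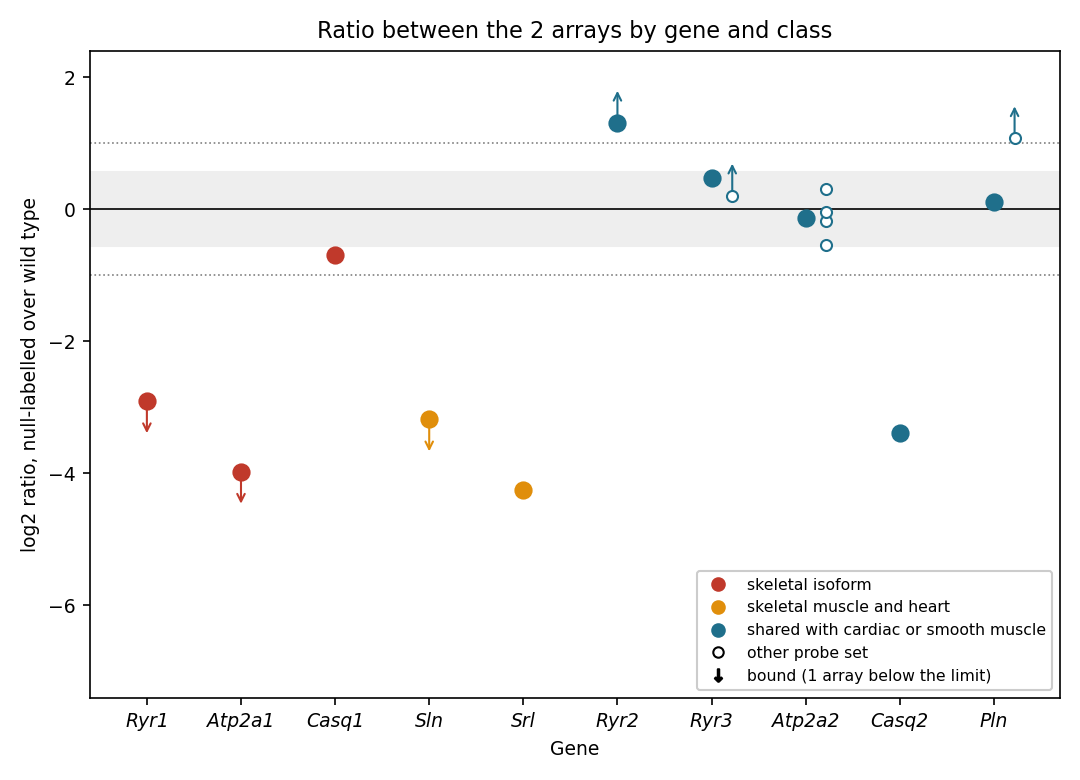
Log2 ratio (null-labelled array relative to wild-type array) for each gene, coloured by class, with the brightest probe set filled, other measured probe sets open, and arrows for bounds; the grey band is 1 SD (0.56) between probe sets of 1 gene and dotted lines mark 2-fold. Both genes of skeletal muscle and heart, Ryr1, Atp2a1 and Casq2 lie at -2.91 or below, Casq1 at -0.69, and the other shared genes between -0.14 and 1.31.

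By class, the median log2 ratio was -2.91 for the 3 skeletal isoforms, -3.72 for Sln and Srl, and 0.11 for the 5 genes shared with cardiac or smooth muscle. The shared genes were the mixed class, with 1 lower (Casq2), 1 higher (Ryr2) and 3 within 2-fold. With Sln and Srl counted among the shared genes their median was -0.14, and with both counted among the skeletal isoforms that median was -3.18.

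Paralogs, and the related regulators Sln and Pln, were also compared as a difference of log2 ratios, in which a linear scaling of either array cancels for genes above the limit. The difference was -4.21 or lower for Ryr1 minus Ryr2, and -3.38 or lower for Ryr1 minus Ryr3. It was -3.84 or lower for Atp2a1 minus Atp2a2 and -3.29 or lower for Sln minus Pln. Each of these 4 holds at least 1 gene below the limit on 1 array. Scaling therefore does not fully cancel in them, and their size depends on the limit. At this limit they were between 4.16 and 5.34 times 0.79, the SD of a difference between probe sets. Casq1 minus Casq2 was 2.71, of opposite sign and 3.43 times that SD. In 4 of the 5 pairs the skeletal or sarcolipin gene had the lower ratio, and the calsequestrins were the exception. The same Ryr1 ratio enters both ryanodine receptor pairs, so the pairs are not independent.

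**Figure D3:**
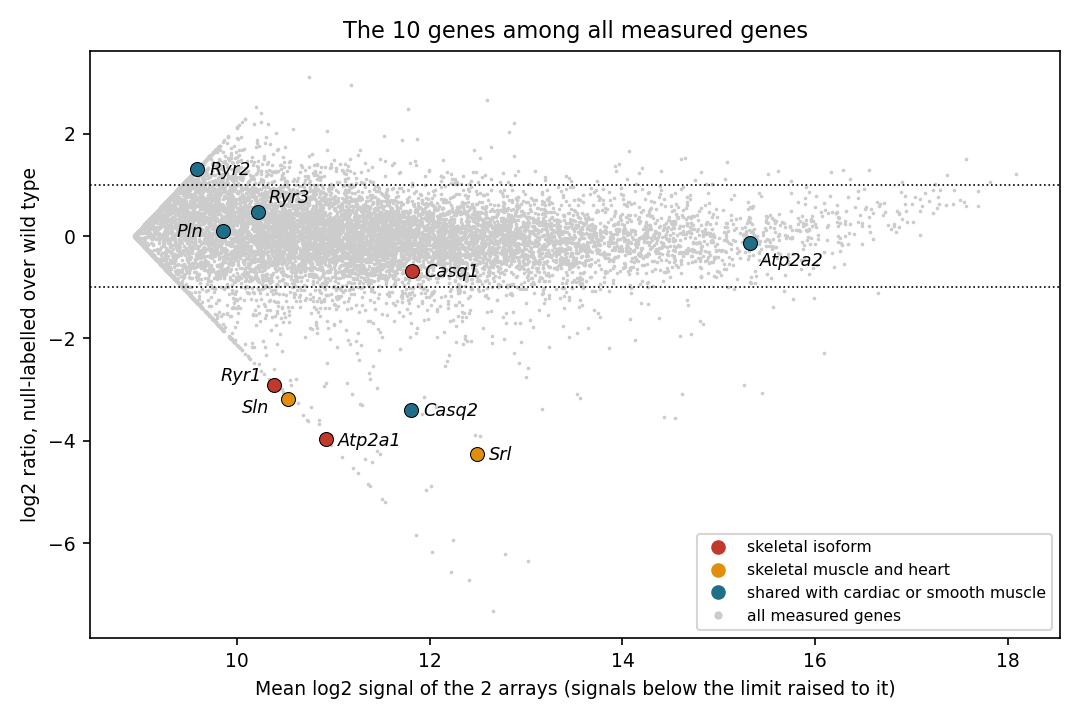
Log2 ratio (null-labelled array relative to wild-type array) against mean log2 signal for the 13315 measured genes (grey), with the 10 genes marked by class; dotted lines mark 2-fold. Signals below the limit were raised to it, which gives the straight edges on the left, on which Ryr1, Sln, Atp2a1 and Ryr2 lie; Srl and Casq2 lie inside the edge.

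Marker lists of other cells that use the shared paralogs were read beside these values. Of 8 cardiac muscle markers 6 were measured, with a median log2 ratio of 0.53. Of these, 4 were higher on the null-labelled array. Mybpc3 (0.71 on the log2 scale) and Myl2 (0.61) were higher by less than 2-fold. Myh6 and Myl7 have only bounds, of 0.79 and 0.45, which set no upper size. Myh6 read 849 on the null-labelled and 297 on the wild-type array. At least 2-fold lower was 1, Myl3, which slow skeletal fibers also make. The other measured Myl3 probe sets had log2 ratios of -2.19 and 0.42. The signal summed over all 8 was 4053 on the null-labelled and 5422 on the wild-type array, of which Myl3 alone gave 26.7 and 2714 on the same arrays. The cardiac markers Nppa and Tnni3 were below the limit on both. Of 7 enteric and autonomic neuron markers 6 were measured, with 2 at least 2-fold lower (Ret and Snap25) and 0 higher. Their other measured probe sets did not repeat this, with log2 ratios of -0.025 for Ret and 0.25 for Snap25. The neuron marker sums were 7637 on the null-labelled and 9870 on the wild-type array. Of 8 esophageal epithelium markers 3 were at least 2-fold lower (Krt14, Krt8 and Krt19) and 0 higher, with sums of 400982 on the null-labelled and 346416 on the wild-type array. The other measured probe sets of Krt14 (-1.89) and Krt8 (-1.28 and -1.17) were also lower. Of all measured genes, 5.36% were 2-fold lower and 6.01% higher. Over all 13315 measured genes, 7535 had a ratio above 0. The 4 of 6 cardiac markers above 0 are too few to set apart from that share. The part of cardiac, smooth muscle, neuron and epithelial cells in the ratios of the 10 genes was not tested.

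The promoters of 6 of the 10 genes were at hand in RefSeq's GRCm38.p6 assembly (Ryr1, Ryr2, Atp2a1, Casq1, Casq2 and Pln). They were searched over the 250 bases before the start site for the E-box CANNTG, the letters that Myf5, MyoD and many other basic helix-loop-helix factors bind, and for the MEF2 motif. The promoters shown are those of the lower skeletal isoforms and of the calsequestrin pair, with CANNTG and MEF2 matches in capitals.
Ryr1 promoter, chr7:29125152-29125401, minus strand: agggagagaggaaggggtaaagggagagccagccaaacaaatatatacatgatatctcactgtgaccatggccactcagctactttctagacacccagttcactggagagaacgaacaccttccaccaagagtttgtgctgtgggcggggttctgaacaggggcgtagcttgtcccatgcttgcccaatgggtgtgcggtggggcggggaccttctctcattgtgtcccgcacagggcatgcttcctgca
Atp2a1 promoter, chr7:126463074-126463323, minus strand: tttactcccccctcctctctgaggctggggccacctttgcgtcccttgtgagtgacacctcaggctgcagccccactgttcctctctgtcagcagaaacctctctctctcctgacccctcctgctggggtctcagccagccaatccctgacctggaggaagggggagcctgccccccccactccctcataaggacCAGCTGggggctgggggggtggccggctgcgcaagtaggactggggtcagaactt
Casq1 promoter, chr1:172219896-172220145, minus strand: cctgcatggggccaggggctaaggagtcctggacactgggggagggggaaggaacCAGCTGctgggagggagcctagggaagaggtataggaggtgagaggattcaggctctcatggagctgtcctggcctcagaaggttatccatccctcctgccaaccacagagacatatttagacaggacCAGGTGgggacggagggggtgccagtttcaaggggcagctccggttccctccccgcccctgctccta
Casq2 promoter, chr3:102086165-102086414, plus strand: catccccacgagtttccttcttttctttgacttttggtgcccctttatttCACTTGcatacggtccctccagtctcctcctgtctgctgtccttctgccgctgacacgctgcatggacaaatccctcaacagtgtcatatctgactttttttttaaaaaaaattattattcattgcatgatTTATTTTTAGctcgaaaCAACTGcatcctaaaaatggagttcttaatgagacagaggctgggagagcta

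CANNTG was found in 5 of the 6 promoters and in 66.2% of the 32851 promoters in the table. CAGCTG, a form of CANNTG that reads the same on both strands, was found in Atp2a1 and Casq1 and in 13% of all promoters. CACCTG or its reverse complement CAGGTG was found in Casq1 and Ryr2 and in 17.2% of all. The MEF2 motif, searched on both strands, was found in Casq2 and in 2.92% of all. No CANNTG lay in this window of Ryr1, at least 7.49-fold lower, while Casq1, within 2-fold, held 2. These matches are descriptions of the letters, not binding sites.

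Partners of the release channel at the junction with the transverse tubule were measured in a list of 23 genes, of which 20 had a probe set with a single symbol. Of these 20, 5 (25%) passed 2-fold in the lower and 1 (5%) in the higher direction, against 5.36% and 6.01% of all measured genes. Ratios above 0 were held by 11 of the 20, and the list's median log2 ratio was 0.12. Trdn encodes triadin, which anchors calsequestrin to the ryanodine receptor, and read 22.8 on the null-labelled array and 3042 on the wild-type array, at least 6.22-fold lower. Its 3 other measured probe sets ran between -1.59 and -0.0027 on the log2 scale. Stac3, which couples the voltage sensor to Ryr1 in skeletal muscle, read 419 on the null-labelled and 1931 on the wild-type array, at least 3.95-fold lower. Hrc, a calcium-binding protein of the lumen that binds triadin, read 1003 on the null-labelled and 3259 on the wild-type array, 3.25-fold lower. Other junction genes lay within 2-fold, among them Asph, whose products include junctin, at a log2 ratio of 0.062 (other probe sets between -1.89 and 0.44) and Jsrp1, a protein of the junctional membrane, at 0.81.

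Bin1, which shapes transverse tubules, read 780 on the null-labelled and 2311 on the wild-type array, 2.96-fold lower, while its other measured probe set had a log2 ratio of 0.40. The TRIC channels, which carry counter-ions during calcium release, went both ways. Tmem38a, the form of excitable tissue, read 134 on the null-labelled and 1191 on the wild-type array, at least 2.44-fold lower. Tmem38b, the broadly expressed form, read 7220 on the null-labelled and 1939 on the wild-type array, 3.72-fold higher, with other probe sets between -0.18 and 1.06. The junctophilins Jph1 and Jph2, which tether the reticulum to the surface membrane, were 1.15-fold and 1.20-fold higher at the brightest probe set, while the second one of each gave a log2 ratio of 1.04 for Jph1 and 1.13 for Jph2.

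In the other 5 partner lists, 4 of 48 measured genes (8.33%) passed 2-fold in the lower and 0 in the higher direction, against 5.36% and 6.01% of all measured genes, and the median log2 ratio was -0.17. Each of these lists had at most 1 such gene, too few to set apart from those shares. Of 9 measured pumps, pump regulators and kinases, 1 was lower (Camk2a, at least 2.24-fold, with 320 on the null-labelled and 1096 on the wild-type array, and a second probe set at -0.034). Camk2g, another subunit of the calmodulin kinase, was 1.66-fold lower, and its other measured probe set had a log2 ratio of 0.33. Atp2a3, the pump SERCA3 of non-muscle cells, read 1950 on the null-labelled and 1845 on the wild-type array. The SERCA-binding peptide gene Mrln, myoregulin of skeletal muscle, read 281 on the null-labelled and 688 on the wild-type array, at least 1.41-fold lower.

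Of 9 measured IP3 receptor and store-operated entry genes, 1 was lower and 0 higher. Stim1, the calcium sensor of the reticulum that opens Orai channels, read 736 on the null-labelled and 1736 on the wild-type array, 2.36-fold lower, and its second probe set had a log2 ratio of -0.43. The IP3 receptor Itpr2 was 1.75-fold higher, with other probe sets between -0.20 and 0.45. Of 15 luminal binding and folding genes of the endoplasmic reticulum, 1 was lower, the calcium-binding protein gene Nucb2 (2.08-fold), 0 were higher, and Rcn3 was 1.94-fold lower. Calr, the calreticulin that binds calcium in most cells, read 24554 on the null-labelled and 29920 on the wild-type array, 1.22-fold lower, with other probe sets between -0.11 and -0.074.

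Of 12 measured plasma membrane and mitochondrial transport genes, 1 was lower, the mitochondrial inner membrane gene Letm1 (at least 2.30-fold, with other probe sets at 0.57 and 0.69), and 0 were higher. Micu3, a regulator of the mitochondrial uniporter, was at least 1.98-fold higher. None of the 3 measured cytosolic buffers was 2-fold apart at this limit, at which 1 of them has only a bound. S100a10 and S100a6 were 1.38-fold and 1.08-fold lower. Pvalb, the parvalbumin buffer of mature fast fibers, was below the limit on both arrays.

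**Figure D4:**
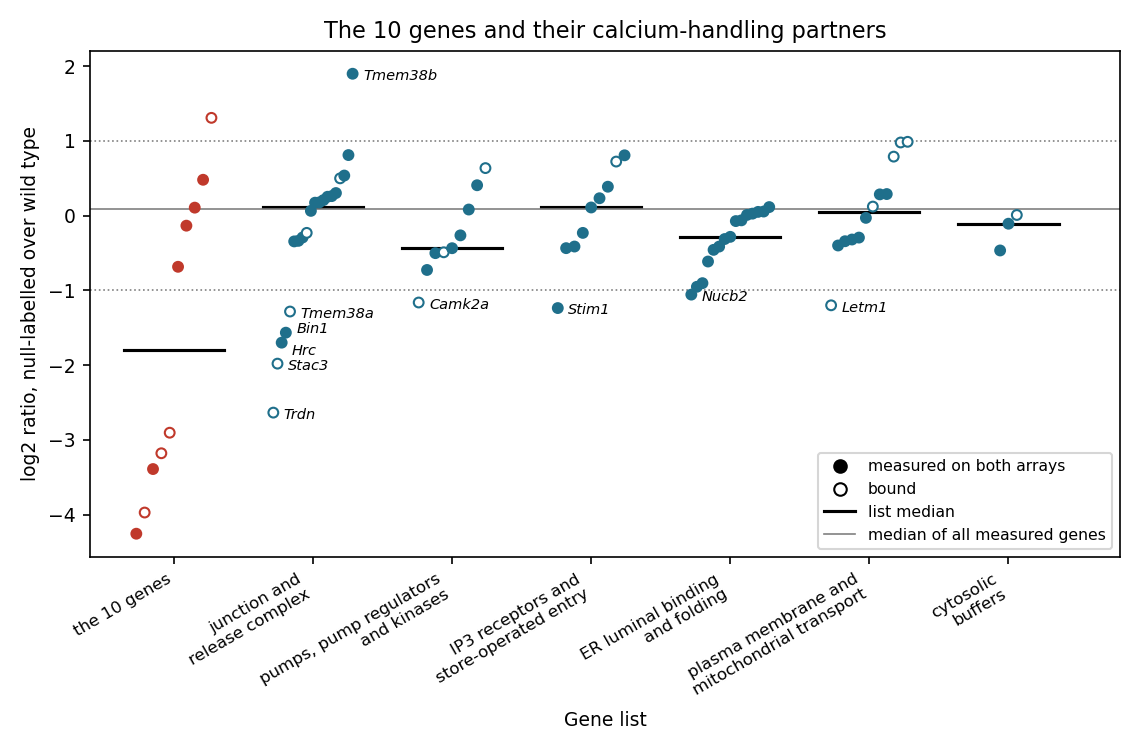
Log2 ratio (null-labelled array relative to wild-type array) for the 10 genes (red) and the measured genes of 6 partner lists (blue), each point a gene at its brightest probe set, with open points for bounds, black bars for list medians, dotted lines at 2-fold and a grey line at the median of all measured genes (0.086). Trdn, Stac3, Hrc, Bin1 and Tmem38a lie below -1 in the junction list and Tmem38b above 1, while most genes of the other lists lie within 2-fold.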

How the data were processed

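Signal intensities of 2 arrays, 1 per genotype, were used as deposited by the authors, on a linear scale and made with MAS5 per the submitters' processing notes. Version, settings and detection calls are not stated in these sources. Of 45101 probe sets, 64 are array controls, and 34945 have 1 gene symbol in GEO's platform annotation, updated by Entrez ID through RefSeq's GRCm38.p6 table. A gene took its probe set of highest mean signal. Signals below 489 were set to 489, and the log2 ratio was the null-labelled signal relative to the wild-type one. A gene below that limit on both arrays was not measured, which left 13315 genes. The limit replaces detection calls and measures no background. At or above it lay 55.4% of probe sets on the null-labelled and 44.6% on the wild-type array. With 1 array per genotype no test was run, and the number of arrays limits the precision. Called means at least 2-fold. The members and lists were chosen with earlier results of these data known. Named are all members, partners at least 2-fold apart (or the 2 largest ratios of a list with fewer than 2), and a few markers. Genes named outside this rule after their values were seen are Jph1, Jph2, Atp2a3, Mrln, Calr, Pvalb, Mb, Ckm, Tagln, Cnn1, Myl3, Nppa, Tnni3, Myh6, Mybpc3, Myl2, Myl7, Asph, Jsrp1, Ret, Snap25, Krt14, Krt8 and Krt19. Alternatives changed the scaling, the limit, the probe sets and the threshold. Scripts were tested on simulated data, in genes with signals well above the limit, so ratios that are bounds were not covered. Python 3.11.15 with numpy 2.4.6, pandas 2.3.3, statsmodels 0.14.6 and matplotlib 3.10.9 was used.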

Additional observations from a re-analysis of the deposited data

How the results depend on the processing

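No paired analysis was possible because each genotype has 1 array. Over centring, quantile normalization, a loess fit of the ratio on signal with a span of 0.3, a limit at the lower or upper quartile (25th or 75th percentile), a pseudocount of 16 in place of the limit, each gene's median probe set ratio, and leaving out probe sets ending in _x_at or _s_at, no called ratio of the 10 genes changed sign, and 4 or 5 of the 10 genes were at least 2-fold lower. It was 4 without those probe sets, where Casq2 has no value and the median log2 ratio of the genes was -0.69. At 4-fold 5 of the 10 were lower and 0 higher. No gene of the 10 (0) was 2-fold higher once the limit was set to the 75th percentile, since Ryr2 and Pln were then not measured, and their paralog differences could not be computed.

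The limit sets the size of the bounds. For Ryr1 minus Ryr2, Ryr1 minus Ryr3 and Sln minus Pln the difference in log2 ratio was -5.92, -4.92 and -4.83 for a limit at the 25th percentile, and -7.57, -6.60 and -5.82 with none. At the 75th percentile it was -1.40 for Ryr1 minus Ryr3 and -2.32 for Atp2a1 minus Atp2a2. Casq1 minus Casq2 stayed between 2.37 and 2.83. At the 75th percentile the log2 ratios of Ryr1 and Sln were -1.39 and -1.66. Of the 68 measured partners, 9 were 2-fold lower and 1 higher. Those higher numbered 6 at the 25th percentile and 6 with no limit, and 0 with the median of probe sets or at 4-fold. Those lower numbered 2 at the 75th percentile, 5 with the median of probe sets and 1 at 4-fold.

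Over all genes 714 passed 2-fold in the lower and 800 in the higher direction. These counts were 831 and 612 after centring, 804 and 546 with quantile normalization, 938 and 449 with loess, 1232 and 2742 with the lower limit (25th percentile), 383 and 148 with the upper one (75th), 1704 and 3548 with none, and 142 and 21 at 4-fold. Loess moved the median of all measured genes to -0.021, against 0.086. The low signals of Ryr1, Atp2a1, Sln and Ryr2 on 1 array set their ratios to bounds, so their size is limited by signal over the limit.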
